A study of Danio rerio with 10 samples.

Results

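The piRNA pathway genes described here are piwil1, piwil2, tdrd1, tdrd9, asz1 and henmt1 of the zebrafish (Danio rerio), followed through sperm, oocyte and 8 stages of the early embryo. They were taken from a list of 8 pathway genes by matching each symbol, in any case, to a gene ID of the deposited table, which holds 32574 genes. Of the 8, 6 matched, and mov10l1 and mael are not analysed here. The groups were sperm, oocyte, embryos with 1, 4, 16, 64, 128, 256 or 1000 cells, and sphere, a blastula stage reached after the 1000-cell embryo. Each group was 1 library of total RNA, isolated with TRIzol and prepared with the TruSeq RNA v2 kit, which selects polyadenylated RNA. The labels give no strain, genotype, treatment, sex or number of animals or embryos for any group, and they name every library, gametes included, as embryo in developmental stage. With 1 library a stage there was no replicate spread, so differences between pairs of libraries carry no p-value, and intervals cover counting error only.

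Piwi-interacting RNAs (piRNAs) are small RNAs of animal germ cells that guide Piwi proteins to transposon transcripts and so keep mobile elements silent. Their precursors are cut at the surface of mitochondria and in germ granules, loaded into Piwi proteins and methylated at the 3' end, while Tudor domain proteins bind methylated arginines of the Piwi proteins and hold the machinery together. In zebrafish the Piwi proteins Ziwi (gene piwil1) and Zili (gene piwil2) are known from the germ cells of ovary and testis, and pathway proteins are also part of the germ plasm that eggs pass to the primordial germ cells.

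Expression was given as RPKM, a read density per length of gene and size of library, so levels can be set side by side between genes. Library sizes, worked back from the RPKM values, ran from 37762530 reads (1-cell) to 113972793 reads (4-cell). The number of genes at 1 RPKM or more was lowest in the 1-cell library (8479) and highest in the sperm library (16450). The sperm library held the markers of sperm tails, with a summed level of 655 RPKM over 4 genes, against 0.743 RPKM in the oocyte library. It also held all 12 markers of meiotic germ cells at 1 RPKM or more, with a sum of 2420 RPKM, against 19.2 RPKM in the oocyte library, where dmc1 and msh4 were at 0. Of 11 markers of somatic cells of the testis, 10 were at 1 RPKM or more in the sperm library (sum 1440 RPKM), against 3 in the oocyte library (sum 29.8 RPKM, insl3 at 0), and their sums in the embryos lay between 39.3 and 72.1 RPKM. Blood markers summed to 29.1 RPKM in sperm and 1.67 RPKM in the oocyte, but 1 of the 4 was at 1 RPKM or more in sperm (median 0.471 RPKM). The sperm values below therefore belong to that library, not to mature sperm alone. Oocyte markers summed to 1556 RPKM in the oocyte and 23.4 RPKM in sperm, and early zygotic genes to 180 RPKM at sphere and 13.3 RPKM in the 1000-cell library.

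**Figure D1:**
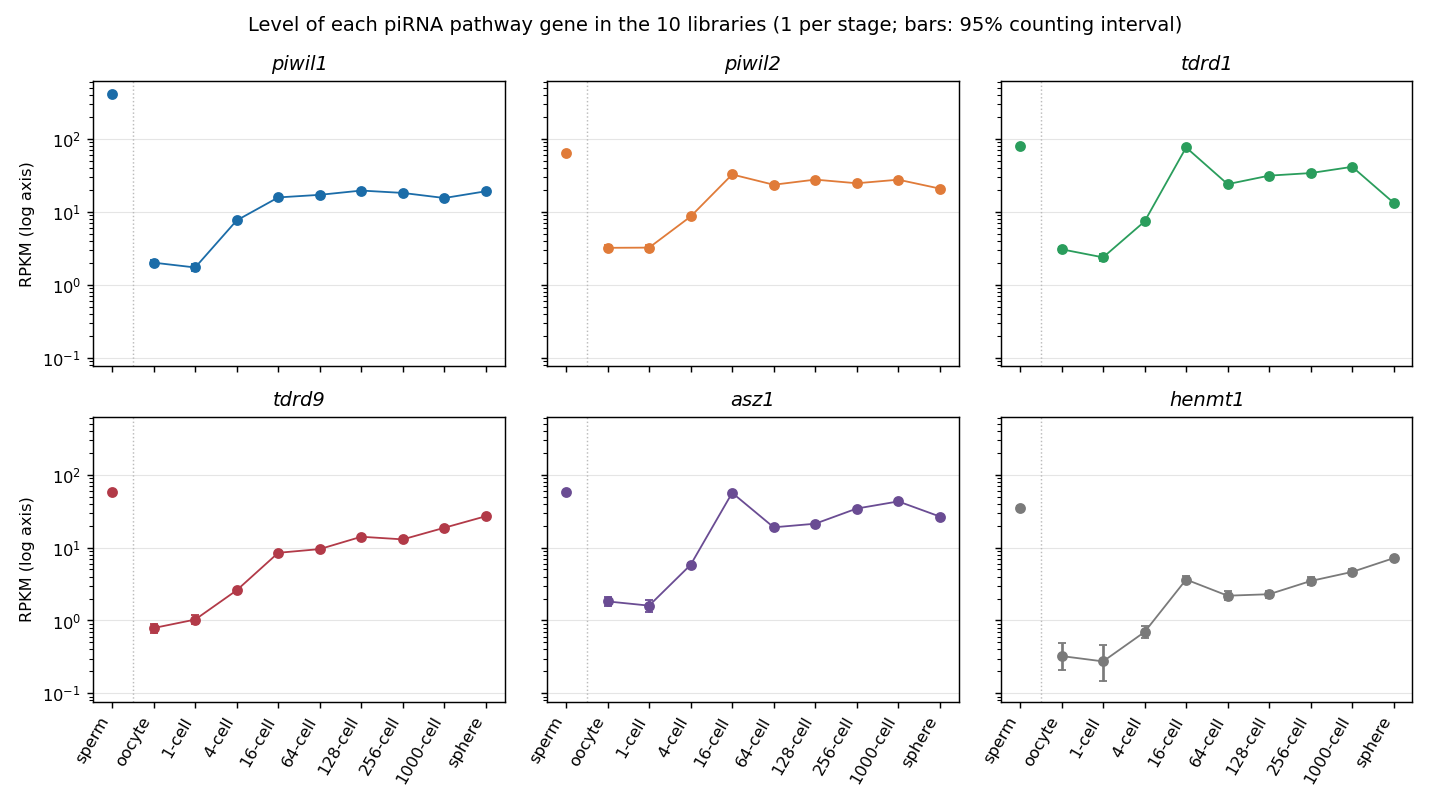
Level of each of the 6 piRNA pathway genes in RPKM (log axis) in the 10 libraries, 1 point per library, with exact 95% counting intervals. Every gene was highest in sperm and lowest in the oocyte or the 1-cell embryo, and tdrd1 and asz1 had a separate high value in the 16-cell library (76.9 and 56.3 RPKM).

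The Piwi genes encode the proteins that carry piRNAs, and their levels differed most from each other in the sperm library. piwil1 (ENSDARG00000041699) encodes Ziwi, and its level was 413 RPKM in sperm (66840 reads, 95% interval 409 to 416) and 2.02 RPKM in the oocyte. In the embryo it was 1.73 RPKM at 1-cell, 7.67 at the 4-cell stage, 15.9 at 16-cell, 17.2 at the 64-cell stage, 19.7 at 128-cell, 18.3 at the 256-cell stage, 15.6 at 1000-cell and 19.3 at sphere. Its level was thus low in the egg and the 1-cell embryo, higher at 4-cell, and between 15.6 and 19.7 RPKM in the 6 libraries from 16-cell on. The sperm level was 20.9-fold above the highest embryo level, and it stood at the 99.0 percentile of the genes at 1 RPKM or more in sperm, while the 1-cell level stood at the 14.1 percentile of that library.

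piwil2 (ENSDARG00000062601) encodes Zili. Its level was 64.6 RPKM in sperm and 3.23 RPKM in the oocyte, and in the embryo 3.25 RPKM at 1-cell, 8.68 at the 4-cell stage, 32.7 at 16-cell, 23.7 at the 64-cell stage, 27.8 at 128-cell, 24.8 at the 256-cell stage, 27.8 at 1000-cell and 21.0 at sphere. Sperm was 1.97-fold above the 16-cell library, the highest of the embryo. The ratio of piwil1 to piwil2 was 6.39 in sperm (6.25 to 6.53), and piwil1 was the lower of the pair in each of the other 9 libraries, with ratios between 0.484 (0.467 to 0.502) at 16-cell and 0.919 (0.887 to 0.953) at sphere.

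Among the Tudor domain genes, tdrd1 (ENSDARG00000007465) encodes a scaffold that binds Piwi proteins in germ granules. It stood at 81.4 RPKM in sperm and 3.08 RPKM in the oocyte. The embryo libraries gave 2.39 RPKM at 1-cell, 7.42 at the 4-cell stage, 76.9 at 16-cell, 24.1 at the 64-cell stage, 31.6 at 128-cell, 34.2 at the 256-cell stage, 41.7 at 1000-cell and 13.3 at sphere. The 16-cell level came close to that of sperm, which was 1.06-fold higher, and the sphere level was 17.4% of the 16-cell one.

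tdrd9 (ENSDARG00000013453) encodes an RNA helicase with a Tudor domain that, in mice, is needed to silence transposons in male germ cells. Its levels were 57.6 RPKM in sperm and 0.787 RPKM in the oocyte. They were 1.03 RPKM at 1-cell, 2.59 at the 4-cell stage, 8.47 at 16-cell, 9.52 at the 64-cell stage, 14.1 at 128-cell, 12.9 at the 256-cell stage, 18.7 at 1000-cell and 26.9 at sphere. tdrd9 was higher than in the library before in 6 of the 7 steps between neighbouring embryo libraries, and its highest embryo level was that of sphere, 26.2-fold above the 1-cell library.

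asz1 (ENSDARG00000004823) encodes a protein known in mice from the mitochondrial surface, where piRNA precursors are processed. Its level was 57.0 RPKM in sperm and 1.82 RPKM in the oocyte. The embryo values were 1.60 RPKM at 1-cell, 5.80 at the 4-cell stage, 56.3 at 16-cell, 18.9 at the 64-cell stage, 21.2 at 128-cell, 34.3 at the 256-cell stage, 42.9 at 1000-cell and 26.6 at sphere. The sperm and 16-cell levels differed by less than their counting intervals, and the 1-cell level was the lowest, 35.3-fold below the 16-cell level.

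henmt1 (ENSDARG00000018871) encodes the methyltransferase that adds the 3' methyl group to piRNAs. It was the lowest of the 6 genes in each of the 10 libraries, at 35.0 RPKM in sperm and 0.325 RPKM in the oocyte. In the embryo its level was 0.274 RPKM at 1-cell (14 reads), 0.695 at the 4-cell stage, 3.64 at 16-cell, 2.19 at the 64-cell stage, 2.29 at 128-cell, 3.48 at the 256-cell stage, 4.64 at 1000-cell and 7.16 at sphere. Like tdrd9 it was highest in the embryo at sphere, but fewer reads lie behind it, and the oocyte and 1-cell libraries cannot be ordered.

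Some neighbours in the order of levels had counting intervals that overlapped. An overlap does not show equal levels, and for tdrd9 the interval on the ratio of 1-cell to oocyte, given below, excluded equality. The oocyte and 1-cell intervals overlapped for piwil1, piwil2, tdrd9, asz1 and henmt1 but not for tdrd1. Overlaps were also found for piwil1 between 16-cell and 1000-cell, between sphere and 256-cell and between 128-cell and sphere. For piwil2 they lay between 256-cell and 64-cell and between 128-cell and 1000-cell, and for henmt1 between 128-cell and 64-cell and between 16-cell and 256-cell. For asz1 sperm and 16-cell overlapped. All other neighbouring libraries in each gene's order were apart by more than these intervals, which hold no spread between samples.

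**Figure D2:**
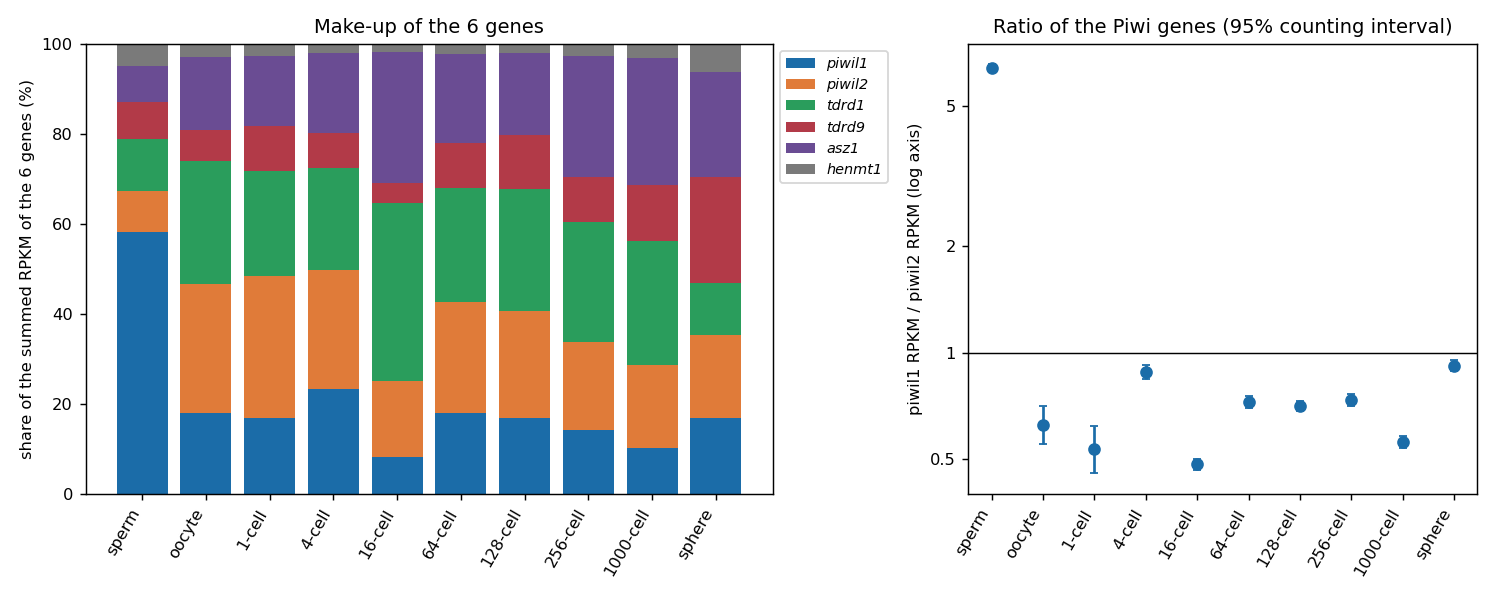
Left, the share of each gene in the summed RPKM of the 6 genes, by library; right, the ratio of piwil1 to piwil2 RPKM (log axis) with its 95% counting interval. piwil1 took 58.3% of the sum in sperm, tdrd1 took 39.7% at 16-cell, and the ratio was above 1 in sperm only.

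The summed level of the 6 genes was 708 RPKM in sperm and 11.3 RPKM in the oocyte. Through the embryo the sum was 10.3 RPKM at 1-cell, 32.9 at the 4-cell stage, 194 at 16-cell, 95.7 at the 64-cell stage, 117 at 128-cell, 128 at the 256-cell stage, 151 at 1000-cell and 114 at sphere. The most abundant gene changed with the stage. By level alone it was piwil1 in sperm, piwil2 in the oocyte and at 1-cell and 4-cell, tdrd1 from 16-cell to 128-cell, asz1 at the 256-cell stage and 1000-cell, and tdrd9 at sphere. The counting interval of the leading gene overlapped that of tdrd1 in the oocyte, at the 256-cell stage and at 1000-cell. It overlapped that of piwil2 at the 64-cell stage. At sphere tdrd9 (26.4 to 27.5 RPKM) and asz1 (25.8 to 27.5 RPKM) overlapped too. The leading gene is not settled in these libraries. The levels were also rescaled by median ratio size factors. These factors equalise the typical level of the genes detected in all 10 libraries, not of every gene measured. After rescaling the sums were 471 in sperm, 17.1 in the oocyte, 27.2 at 1-cell, 49.5 at the 4-cell stage, 145 at 16-cell and 84.4 to 109 in the later libraries. The sum at 1-cell was thus below the oocyte's as deposited and above it after rescaling. In a whole-embryo or whole-tissue library, fewer cells of a type and less RNA per cell cannot be told apart. The kit selects polyadenylated RNA, so the amount of a transcript and the part of it that is polyadenylated cannot be told apart either.

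The library labelled sperm was set against the oocyte library. In each comparison of 2 libraries, genes with at least 1 RPKM in either were measured, and the rule for calling a gene higher or lower was a gap of at least 2 in log2(RPKM + 1), a 4-fold change on that scale. All 6 piRNA genes were higher in sperm and 0 lower, where 31.5% of the 17364 genes measured were higher and 9.08% lower. The median difference was 4.56 over the 6 genes and 1.22 over all genes measured. By ratio of RPKM, piwil1 was 204-fold higher in sperm (186 to 224), henmt1 108-fold (72.2 to 169) and tdrd9 73.2-fold (63.5 to 84.7). The ratios were smaller for asz1 (31.3-fold, 26.8 to 36.6), tdrd1 (26.4-fold, 24.4 to 28.5) and piwil2 (20-fold, 18.4 to 21.7). Median ratio scaling moved the median of all genes by -0.71, to 0.51, and left 52.5% of the called genes higher, in place of 77.6%. The 6 differences then lay between 2.90 (piwil2) and 6.08 (piwil1), and all 6 genes passed the 4-fold rule there and in the other 5 alternative settings. The meiotic and testis markers given above were higher in the same library, and their part in these differences was not tested.

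**Figure D3:**
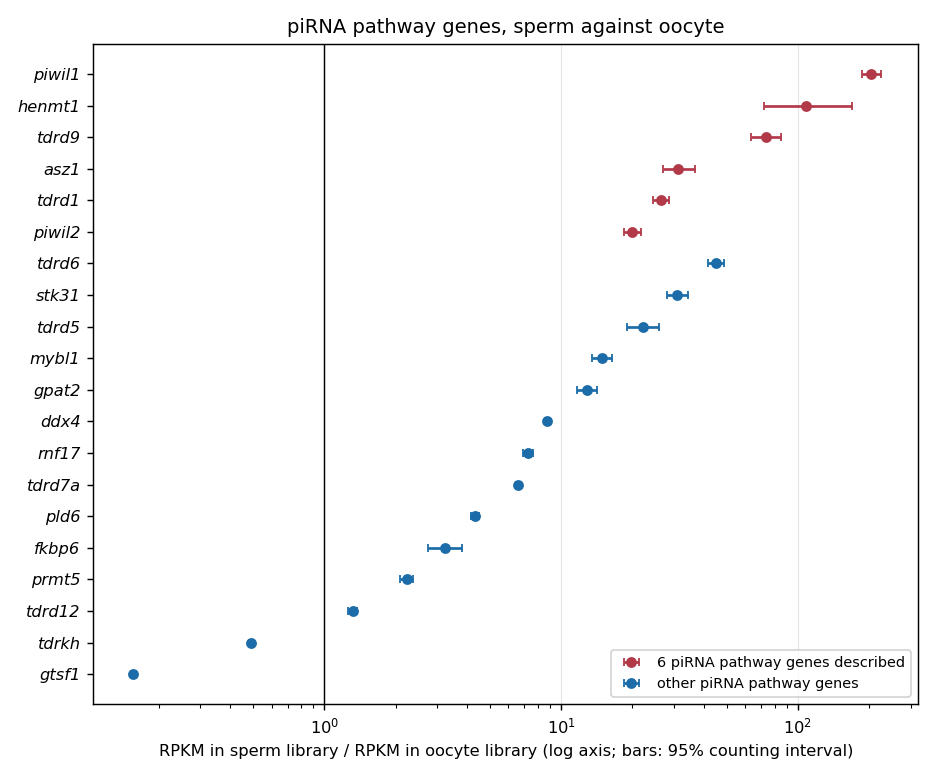
Ratio of RPKM in the sperm library to RPKM in the oocyte library (log axis) for the 6 piRNA genes described and 14 other genes of the pathway, with 95% counting intervals. The 6 genes lie between 20 (piwil2) and 204 (piwil1), and gtsf1 and tdrkh are the genes below 1.

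Other genes of the pathway were taken from a list of 19, of which 14 matched. In sperm against oocyte, 9 of these 14 were higher and 1 lower, with a median difference of 2.71. Of all 17364 genes measured, 31.5% were higher and 9.08% lower, with a median of 1.22. These shares also apply to the unscaled counts of the microRNA pathway and germ plasm genes below. The largest ratio was that of tdrd6, a Tudor gene that in zebrafish acts in germ plasm assembly, at 95.6 RPKM in sperm and 2.11 RPKM in the oocyte (45.3-fold, 42.0 to 49.0). The Tudor domain genes stk31 (31.0-fold), tdrd5 (22.1-fold), rnf17 (7.26-fold) and tdrd7a (6.60-fold) were higher too. So were mybl1, a transcription factor of piRNA precursors in mice (14.9-fold), gpat2 (12.9-fold), the germ cell helicase gene ddx4, known as vasa (8.76-fold), and pld6, whose mouse protein sits on mitochondria (4.34-fold). gtsf1, which encodes a cofactor of Piwi proteins, was the lower gene, at 142 RPKM in sperm and 913 RPKM in the oocyte (6.41-fold lower, 6.26 to 6.56). After median ratio scaling the 14 split into 5 higher and 2 lower (median 1.55), where 3233 of 16495 genes were higher and 2924 lower. tdrd6 (3.94), stk31 (3.44), tdrd5 (2.64), mybl1 (2.35) and gpat2 (2.22) still passed the rule as higher. ddx4 (1.92), rnf17 (1.59), tdrd7a (1.51) and pld6 (0.91) no longer did, and tdrkh (-2.19) joined gtsf1 (-3.86) among the lower genes. For comparison, of 10 genes of the microRNA pathway, a small RNA pathway that is not limited to germ cells, 1 was higher and 5 were lower in sperm (median -2.51), and of 11 germ plasm genes 3 were higher and 3 lower (median -0.51). After scaling these counts were 0 higher and 6 lower of the 10 microRNA pathway genes, and 1 higher and 5 lower of the 11 germ plasm genes. ddx4, tdrd6 and tdrd7a are in both the germ plasm list and the list of other piRNA genes. They were the 3 germ plasm genes higher in sperm, and tdrd6 was the 1 still higher after scaling.

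The 1-cell embryo was set against the oocyte next, a step that spans fertilisation. None of the 5 piRNA genes measured passed the rule, and 1.06% of the 10373 genes measured were higher and 3.4% lower. The ratio of 1-cell to oocyte RPKM was 1.31 for tdrd9 (1.06 to 1.61), 1.01 for piwil2 (0.888 to 1.14), 0.875 for asz1 (0.679 to 1.12), 0.858 for piwil1 (0.735 to 1.00) and 0.774 for tdrd1 (0.680 to 0.879). henmt1, under 1 RPKM in both libraries, was not measured. Median ratio scaling moved the median of all genes by 0.64, to 0.33. The differences of the 5 genes then lay between 0.37 (tdrd1) and 0.76 (tdrd9). Those of piwil1, tdrd1 and asz1 had changed sign, so no direction holds for these 3 genes. The share of called genes that were higher in the 1-cell library was 23.8%, and 34.8% after scaling.

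Steps through early cleavage were compared next, each library against the one before. At 4-cell against 1-cell, 0 of the 5 genes measured passed the rule, with 2.15% of 10434 genes higher and 0.355% lower. All 5 ratios were above 1, where 74.4% of all genes measured had a difference above 0. The ratios were 4.42 for piwil1 (3.91 to 5.03), 3.63 for asz1 (2.97 to 4.48) and 3.11 for tdrd1 (2.79 to 3.47). They were 2.67 for piwil2 (2.42 to 2.96) and 2.52 for tdrd9 (2.15 to 2.97). The median difference was 1.31 over the 5 genes and 0.51 over all genes. Median ratio scaling moved the median of all genes by -0.64 and turned the share of called genes that were higher to 25.2%, in place of 85.8%. The differences of the 5 genes then lay between 0.40 (tdrd9) and 1.16 (piwil1).

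At 16-cell against 4-cell, 2 of 6 genes passed the rule as higher, tdrd1 (10.4-fold, 10.0 to 10.7) and asz1 (9.71-fold, 9.12 to 10.3), where 10.7% of 12606 genes were higher and 0.587% lower. The ratios of the other 4 were 5.24 for henmt1, 3.77 for piwil2, 3.27 for tdrd9 and 2.07 for piwil1. The median difference was 1.63 over the 6 genes, against 0.74 over all genes. Scaling left 324 of 12345 genes higher and 767 lower. It moved the median of all genes by -0.83 and the share of called genes that were higher to 29.7%, in place of 94.8%. None of the 6 genes changed sign under it, although piwil1 came to a difference of 0.04, and tdrd1 (2.27) and asz1 (2.15) still passed the rule. Among the other pathway genes, tdrd5 (30.1 RPKM at 16-cell and 1.64 RPKM at 4-cell, 18.4-fold) and prmt5, the arginine methyltransferase whose marks Tudor domains bind (105 and 24.4 RPKM, 4.31-fold), were higher. After scaling tdrd5 still passed (2.77), prmt5 had a difference of 1.08, short of the rule, and tdrkh was lower (-2.26).

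The 16-cell value of tdrd1 and asz1 also stood above the library after it. Levels at 16-cell were 3.19-fold those at 64-cell for tdrd1 and 2.97-fold for asz1, while they were 1.66-fold for henmt1, 1.38-fold for piwil2, 0.921-fold for piwil1 and 0.890-fold for tdrd9. Measured as the difference in log2(RPKM + 1) from the higher of the neighbouring libraries, tdrd1 stood 1.63 and asz1 1.52 above, at the 98.2 and 97.6 percentiles of all genes. The median gene stood 0.11 above, and 56.1% of genes stood above 0. tdrd5 stood 2.16 above, at the 99.6 percentile. This comparison was chosen after the values were seen and rests on 1 library of 16-cell embryos.

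The 128-cell embryo was set against the 1-cell embryo to follow transcripts through cleavage, and sphere against 1-cell to span the series. At 128-cell 5 of 6 genes were higher and 0 lower, where 25.7% of 12336 genes were higher and 2.43% lower. The ratios were 13.7 for tdrd9 (11.8 to 16.0), 13.3 for asz1 (10.9 to 16.3), 13.2 for tdrd1 (11.9 to 14.7), 11.4 for piwil1 (10.0 to 12.9) and 8.57 for piwil2 (7.78 to 9.46). henmt1 had a ratio of 8.34 (4.89 to 15.5) but, at low levels, a difference of 1.37 on the log2(RPKM + 1) scale, short of the rule. The median difference was 2.91 over the 6 genes, against 1.13 over all genes.

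These counts depended on the 1-cell library and on the scaling. Median ratio scaling moved the median of all genes by -1.29 and the share of called genes that were higher to 31.9%, in place of 91.4%. Of 12453 genes measured, 960 were then higher and 2054 lower. The 6 differences were then between 0.72 (henmt1) and 1.85 (tdrd1), all above 0, and 0 genes passed the rule. With the 4-cell embryo as the early library, 1 of the 6 passed, where 775 of 12274 genes were higher and 105 lower. In the other pathway genes, 6 of the 13 measured were higher at 128-cell than at 1-cell before scaling, and 1 was lower. Of all 12336 genes measured at that setting, 25.7% were higher and 2.43% lower. The higher genes were gpat2 (20.9-fold), stk31 (16.2-fold), tdrd6 (15.9-fold), tdrd5 (13.7-fold), prmt5 (8.89-fold) and fkbp6 (8.52-fold). The lower gene was tdrkh (19.6 RPKM at 128-cell and 145 RPKM at 1-cell, 7.38-fold lower). After scaling, 3 of 14 were higher and 4 lower. gpat2 (2.47), tdrd6 (2.16) and stk31 (2.03) still passed as higher, while tdrd5 (1.61), prmt5 (1.39) and fkbp6 (1.15) did not. The lower genes were then tdrkh (-4.52), pld6 (-3.40), gtsf1 (-2.72) and tdrd12 (-2.45). With the 4-cell embryo as the early library, stk31 was the 1 higher gene and tdrkh the 1 lower gene among these 14.

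In sphere against 1-cell all 6 genes were higher, where 31.4% of 13769 genes were higher and 4.52% lower. The ratios were 26.2 for tdrd9, 26.1 for henmt1, 16.7 for asz1, 11.1 for piwil1, 6.45 for piwil2 and 5.59 for tdrd1. The median difference was 2.78 over the 6 genes and 1.25 over all genes. Scaling moved the median of all genes by -1.24 and the share of called genes that were higher to 41.3%, in place of 87.4%. It left 1 of the 6 genes past the rule, where 1872 of 13682 genes were higher and 2663 lower. The 4-cell embryo as the early library left 3, where 2415 of 13764 genes were higher and 431 lower. This comparison, the 128-cell one and the 4-cell one share the 1-cell library.

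Later stages were compared around the onset of zygotic transcription, between 128-cell and 1000-cell and between 1000-cell and sphere. At 1000-cell against 128-cell 0 of 6 genes passed the rule, and 0.141% of 12749 genes were higher and 0.00784% lower. asz1 (2.02-fold, 1.94 to 2.11) and henmt1 (2.02-fold, 1.74 to 2.36) had the highest ratios, tdrd9 and tdrd1 stood at 1.33 and 1.32, piwil2 at 0.998 (0.967 to 1.03) and piwil1 at 0.790 (0.761 to 0.820).

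At sphere against 1000-cell 0 of 6 genes passed, where 4.06% of 13983 genes were higher and 0.415% lower. The 6 genes divided, as did all genes measured, of which 47.6% had a difference above 0. Ratios were above 1 for henmt1 (1.54, 1.37 to 1.74), tdrd9 (1.44, 1.40 to 1.49) and piwil1 (1.24, 1.19 to 1.29). They were below 1 for tdrd1 (3.12-fold lower, 3.02 to 3.23), asz1 (1.61-fold lower, 1.55 to 1.68) and piwil2 (1.33-fold lower, 1.28 to 1.37). The difference of tdrd1, -1.57, lay at the 1.29 percentile of all genes measured, and none of the 6 differences changed sign under median ratio scaling. In the same comparison tdrd6 passed the rule, at 8.61 RPKM in sphere and 67.3 RPKM at 1000-cell (7.82-fold lower, 7.56 to 8.08).

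**Figure D4:**
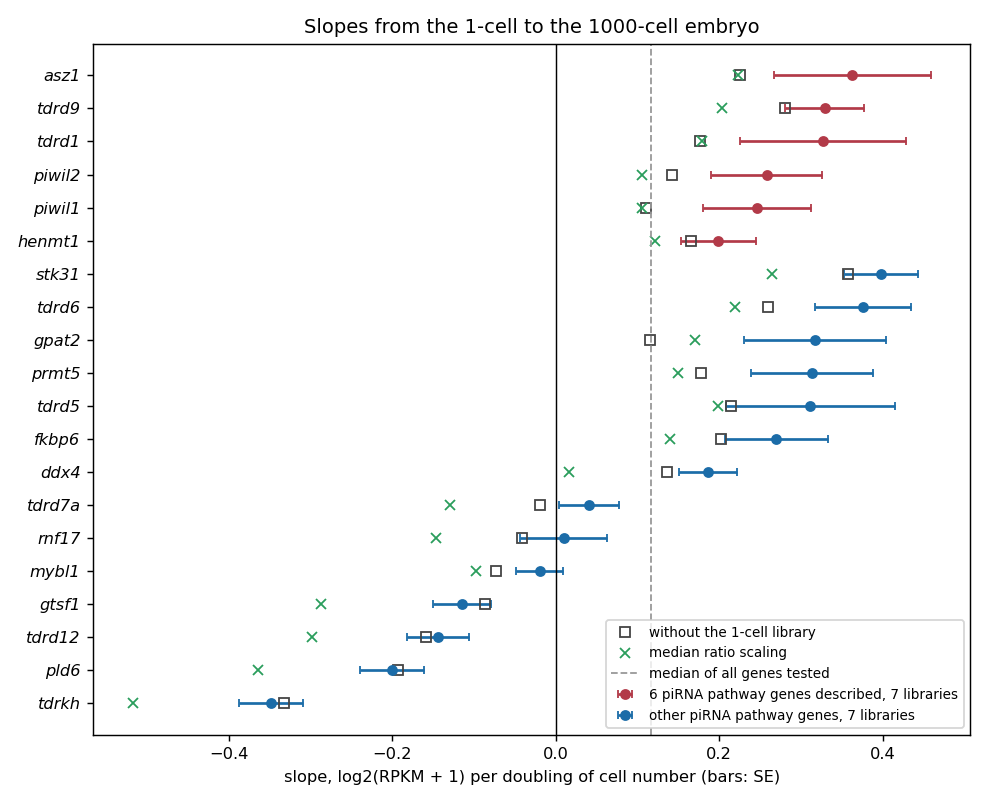
Slope of log2(RPKM + 1) per doubling of cell number over the 7 libraries from 1-cell to 1000-cell (points, with SE) for the 6 piRNA genes described and 14 other pathway genes, with the slope without the 1-cell library (squares) and after median ratio scaling (crosses). The 6 genes have slopes between 0.20 (henmt1) and 0.36 (asz1), right of the median of all genes (0.12, dashed).

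The trend over cell number asked which genes rose or fell over the 7 libraries between the 1-cell and the 1000-cell embryo, for which a cell number is on the labels. limma was fitted to log2(RPKM + 1) against log2 cell number, with Benjamini-Hochberg adjustment over all 12720 genes tested. The error of this fit holds both departures from a straight line and differences between libraries. All 6 genes rose and 0 fell, where 52.7% of all genes tested rose and 9.16% fell. The median slope was 0.29 per doubling of cell number over the 6 genes and 0.12 over all genes. asz1 rose by 0.36 (SE 0.096, adjusted p = 0.0104), tdrd9 by 0.33 (SE 0.048, adjusted p = 0.00163) and tdrd1 by 0.33 (SE 0.10, adjusted p = 0.0199). piwil2 rose by 0.26 (SE 0.068, adjusted p = 0.0105), piwil1 by 0.25 (SE 0.067, adjusted p = 0.0114) and henmt1 by 0.20 (SE 0.046, adjusted p = 0.00601).

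The slopes of the 6 genes were above 0 in every alternative run, but the calls were not. Without the 1-cell library 1567 of all 12668 genes tested rose and 448 fell. Of the 6 genes tdrd9 alone passed there (slope 0.28, adjusted p = 0.0260), and the adjusted p of the other 5 lay between 0.0912 and 0.297. These were the highest over all alternatives, and the lowest lay between 3.59e-05 (asz1) and 0.00319 (piwil1). Median ratio scaling moved the median slope of all genes by -0.12. It left 3362 of 12431 genes rising and 3682 falling, so 47.7% of the called genes rose, in place of 85.2%. After it tdrd9, asz1 and henmt1 passed. The adjusted limma p was then 0.0814 for piwil1, 0.0610 for piwil2 and 0.069 for tdrd1. tdrd9 passed in all 14 alternatives run for it.

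The other pathway genes did not share 1 course, with 7 of 14 rising and 4 falling (median slope 0.11). Of all genes tested 52.7% rose and 9.16% fell, so the share rising was near that of all genes. Rising were stk31 (0.40), tdrd6 (0.38), gpat2 (0.32), prmt5 (0.31), tdrd5 (0.31), fkbp6 (0.27) and ddx4 (0.19), with adjusted limma p between 0.00121 and 0.0263. The falling genes were tdrkh (slope -0.35), whose mouse protein recruits the enzyme that trims piRNA 3' ends, pld6 (-0.20), tdrd12 (-0.14) and gtsf1 (-0.11), with adjusted limma p between 0.00121 and 0.0197. tdrd7a, rnf17 and mybl1 did not pass. After median ratio scaling the split turned round, with 4 of 14 rising and 7 falling (median slope -0.041). Over all genes 3362 of 12431 then rose and 3682 fell (median slope -0.0044), so the turn was not particular to these genes. stk31, tdrd6, fkbp6 and prmt5 still rose, while tdrd5 (adjusted p = 0.0658), gpat2 (adjusted p = 0.0535) and ddx4 (adjusted p = 0.754) did not pass. tdrd7a (slope -0.13, adjusted p = 0.0152), rnf17 (slope -0.15, adjusted p = 0.0116) and mybl1 (slope -0.098, adjusted p = 0.00968) then passed as falling, beside the 4 falling genes named. Without the 1-cell library 1567 of all 12668 genes tested rose and 448 fell. Of the 14 pathway genes 3 rose there (stk31, tdrd6 and ddx4) and 3 fell (tdrkh, pld6 and tdrd12). The calls lost there were those of tdrd5 (adjusted p = 0.269), gpat2 (adjusted p = 0.195), prmt5 (adjusted p = 0.129), fkbp6 (adjusted p = 0.1001) and gtsf1 (adjusted p = 0.193). Of the microRNA pathway genes 2 of 9 rose (dicer1 and tnrc6a) and 1 fell (drosha), and of the germ plasm genes 4 of 11 rose and 2 fell. After scaling these became 1 rising and 6 falling microRNA pathway genes, and 2 rising and 4 falling germ plasm genes. Without the 1-cell library they were 2 rising and 0 falling of the microRNA pathway genes, and 2 rising and 1 falling of the germ plasm genes. Those 2 rising germ plasm genes were ddx4 and tdrd6, which are also among the other pathway genes.

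The 6 genes resembled each other across libraries. Over the 15 pairs, Pearson's r of log2(RPKM + 1) lay between 0.77 and 0.97 (median 0.89) across the 10 libraries, and between 0.69 and 0.96 (median 0.88) across the 8 embryo libraries. These are descriptions over libraries that differ in the number of genes detected, and the genes share those libraries. Of all genes measured, 72.1% had a difference above 0 in sperm against oocyte and 76.7% at 128-cell against 1-cell. The r between other genes was not computed, so the likeness is not shown to be particular to the 6. The 2 genes most like each of the 6 over the 10 libraries were searched among 9765 genes with a symbol of their own and a mean of at least 1 RPKM. They were DCLRE1C (r = 0.997) and GNAI3 (0.990) for piwil1, relb (0.995) and MAML1 (0.993) for piwil2, and PLEKHH2 (0.991) and SPSB3 (0.990) for tdrd1. For tdrd9 they were CEP131 and si:ch211-59c24.3 (0.997 each), for asz1 UBE2F (0.997) and zgc:113452 (0.992), and for henmt1 dlec1 and MTRF1L (0.995 each). All of these, the best of a large search, were above the highest r within the 6 genes (0.97). DCLRE1C, for example, stood at 47.2 RPKM in sperm and 0.681 RPKM in the oocyte, and between 0.529 and 4.67 RPKM in the embryo. With sperm left out, 2 of these 12 genes stayed among the most alike, UBE2F for asz1 and dlec1 for henmt1.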

How the data were processed

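Per the labels, 50 bp single reads of total RNA were sequenced on a HiSeq2000. The table deposited by the authors gives RPKM for 32574 genes in 10 columns, 1 per library. TopHat2 2.0.9 and the build Zv9 are listed in the submitters' processing notes. The sources used here do not name the counter, annotation, strand setting or handling of multi-mapping reads, so isoforms and overlapping genes were not told apart. Gene IDs were matched to symbols in a name table (20901 IDs). Gene lengths and whole reads were worked back from the RPKM values with a tolerance of 0.001 reads. The 6 genes had 14 to 66840 reads per library, which set exact 95% intervals (Poisson for levels, Clopper-Pearson for ratios). In the 10 libraries 3 reads in 1 kilobase correspond to 0.0263 to 0.0794 RPKM.

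Differences were taken in log2(RPKM + 1) among genes at 1 RPKM or more in either library. The trend used limma 3.58.1 in R 4.3.3 (lmFit, eBayes with trend) on genes at 1 RPKM or more in at least 2 of 7 libraries, with 5 residual degrees of freedom, and was called at an adjusted p under 0.05. It was also run on simulated reads with genes of known slope. That simulation held no shift shared by most genes of a library, so it does not bear on such shifts. Alternatives were pseudocounts of 0.1 and 5, other filters, median ratio scaling, other libraries in place of the 1-cell, 128-cell and oocyte ones, stage order in equal steps, eBayes without trend and leaving out libraries. The genes and lists were chosen with earlier results of these data known. Genes named outside the 6 were list members called in a comparison and the 2 most alike in pattern. No sequences or coordinates are given.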

Additional observations from a re-analysis of the deposited data

How the results depend on the processing

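No paired analysis was possible because each stage had 1 library with the same number. The counts of piRNA genes stayed within 1.5 times under every alternative run in the comparisons of sperm and of 1-cell with oocyte, of 16-cell with 4-cell, of 1000-cell with 128-cell and of sphere with 1000-cell. For 1-cell against oocyte the filter at 5 RPKM left 0 of these genes to test, so its count of 0 was fixed in advance. At 4-cell against 1-cell a pseudocount of 0.1 gave 1 gene higher in place of 0, where 1039 of 10434 genes were higher in place of 224. At 128-cell against 1-cell the 5 higher genes became 1 with a pseudocount of 5, 0 with median ratio scaling and 1 with the 4-cell embryo as the early library. At sphere against 1-cell the 6 became 2, 1 and 3 under the same settings. With the pseudocount of 5, 1689 of 13769 genes were higher at sphere, in place of 4320. In the trend, scaling gave 3 rising genes in place of 6, and leaving out each library in turn gave 1 to 6, the lowest without the 1-cell library. tdrd1 also missed the threshold without a filter and without the 4-cell library. Its adjusted p lay between 6.89e-05 and 0.297 over 14 alternatives. Slopes that changed sign were those of tdrd7a (-0.13 after scaling, passing as falling with adjusted p = 0.0152, and -0.020 to 0.065 with each library left out) and rnf17 (-0.15 after scaling, passing as falling with adjusted p = 0.0116, and -0.042 to 0.028 with each library left out). Over all genes, 6699 rose and 1165 fell, against 3362 and 3682 after scaling and 1567 and 448 without the 1-cell library. The counts of higher genes at 128-cell against 1-cell were 3174, against 1034 with a pseudocount of 5, 5316 with 0.1, 960 with scaling and 775 with the 4-cell embryo. The cause of these shifts was not tested. henmt1 rests on 14 to 107 reads in the oocyte, 1-cell and 4-cell libraries, which limits its ratios there.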

Other observations

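Pathway genes with a known place at mitochondria did not move together in the embryo. This group was put together after the values were seen and carries no test of its own. asz1 and gpat2, whose mouse proteins are found on mitochondria, had slopes over cell number of 0.36 and 0.32, and both rose. tdrkh and pld6, of the same place in mice, had slopes of -0.35 and -0.20, and both fell. tdrkh stood at 145 RPKM at 1-cell, 99.0 at the 4-cell stage, 40.5 at 16-cell, 30 at the 64-cell stage, 19.6 at 128-cell, 16.5 at the 256-cell stage, 15.3 at 1000-cell and 9.69 at sphere, lower in each library than in the one before. pld6 stood at 30.9 RPKM at 1-cell, 24.5 at the 4-cell stage, 16.7 at 16-cell, 11.4 at the 64-cell stage, 8.48 at 128-cell, 8.68 at the 256-cell stage, 8.55 at 1000-cell and 4.53 at sphere. The slopes of tdrkh and pld6 stayed below 0 and past the threshold in all 14 alternatives. Those of asz1 and gpat2 missed it without the 1-cell library (adjusted p = 0.180 for asz1 and adjusted p = 0.195 for gpat2), and that of gpat2 also after median ratio scaling (adjusted p = 0.0535).

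gtsf1 was by level the most abundant of the 20 pathway genes in the oocyte and in every embryo library, at 913 RPKM in the oocyte, 1064 at 1-cell, 889 at the 4-cell stage and 446 to 584 from 16-cell to sphere. In sperm, where it stood at 142 RPKM, piwil1 was the most abundant of the 20.

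tdrd1 and tdrd6 had the lowest sphere levels relative to 1000-cell among the 20 genes, at 0.320 and 0.128 of it, followed by 0.400 for mybl1, which was under 1 RPKM in both, 0.522 for tdrd7a and 0.530 for pld6. tdrd1, tdrd6, tdrd7a and pld6 lie below the median difference of all genes, which was -0.03 in log2(RPKM + 1). They were picked as the lowest of the 20, so their place below that median adds no support.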
